A study of Homo sapiens with 4 samples.

Results

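The genes described here were 51 p53 targets and apoptosis genes, chosen by gene symbol and grouped by role. All 51 had a count in at least 1 library, out of 14911 genes listed in the 4 count tables, and the counts of a gene's listed transcripts were added up. Of them, 27 were p53 targets and 24 were other genes of the apoptosis machinery. On average over the 4 libraries, 50 or more counts were reached by 16 of the 51 (11 p53 targets and 5 other apoptosis genes), against 5320 of all genes, and folds are mainly given for these 16. The other 35 are given by their counts.

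p53 is a transcription factor that is stabilised after DNA breaks. It switches on genes that stop the cell cycle, repair DNA or start apoptosis, and also MDM2 and PPM1D, whose products shut p53 off again. In the mitochondrial pathway of apoptosis, BH3-only proteins act on BAX and BAK1, these open the outer membrane, and released cytochrome c joins APAF1 to activate caspases, while BCL2, MCL1 and the inhibitor of apoptosis proteins hold the process back. HEK293T cells, a human embryonic kidney line, carry the SV40 large T antigen, a viral protein that binds p53 and impairs its activity. N6-methyladenosine (m6A) is a base mark on mRNA that ALKBH5 removes.

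The libraries came from HEK293T cells exposed to X-rays that carried a control shRNA (shCTL) or an shRNA against ALKBH5 (shA5). From each population poly(A) RNA was sequenced before (input) and after pull-down with an m6A antibody (m6A-IP), which gave 4 libraries with 1 per group. All 4 were irradiated, so induction by X-rays could not be measured, and the study's methods give 10 Gy. They do not name the harvest time or the ALKBH5 shRNA behind these libraries, and the shRNAs were delivered by lentivirus (pLKO.1) with puromycin selection. Each population was sampled once.

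Library totals ran from 1311390 counts (shA5 input) to 3944402 (shCTL m6A-IP), and the members took 0.243 to 0.309% of a library. Counts were divided by the library total and given as CPM, the share of the library times 1000000. m6A enrichment is the log2 ratio of m6A-IP to input CPM, and changes are shA5 minus shCTL, with 0.5 CPM added to each value except for single transcripts, whose ratios have nothing added. Enrichment is thus relative to the other genes of the same libraries, and a change in m6A shared by all genes would not show in it. Brackets hold exact 95% intervals of the ratio without that addition, which cover counting error only. With 1 library per group no difference had a replicate check, and no test between populations was possible. A gene was called when it passed 1.5-fold, a log2 value of 0.585. A count of 0 allows up to 3 counts, which for the inputs of shCTL and shA5 is 1.34 and 2.29 CPM and for their IPs 0.761 and 0.953 CPM. ALKBH5, the targeted gene, was at 217 CPM before the pull-down in shCTL and at 111 CPM in shA5. Of 9 markers fixed for HEK293T, 8 had a count and 3 passed the filter, among them IGF2BP1 with 1389 to 2307 counts in shCTL, but VIM, which encodes vimentin, had at most 8 counts in a library. The 8 colon cancer markers had 382 counts in the shCTL input, of which CDX2, an intestinal marker, took 376, and no other marker of that list passed the filter. Summed over each list, fibroblast markers (1 of 5 passed the filter) had 183 and 124 CPM in the shCTL and shA5 inputs and 152 and 82.6 CPM in the IPs, and leukocyte markers (0 of 4) had 0.447 to 5.34 CPM in a library. The part these markers play in the values of the members was not tested.

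A gene that every cell uses had few counts. GAPDH, a housekeeping gene of glycolysis, had 78 counts in the shCTL input. The share of transcripts listed and their mean count were higher where a transcript has more sequence to itself, although most listed transcripts had less than 1000 such bases. Of the coding transcripts in Gencode v44 with at least 1000 bases found in no other coding transcript of their gene, 72.7% were listed, with a mean of 707 counts summed over the libraries. Of those with fewer such private bases, but at least 1, 33.6% were listed, with a mean of 60.2 counts, and of those with none 16.7%, with a mean of 24.5.

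The members followed this pattern in part. For the 16 members with enough counts the largest number of private bases of any coding transcript had a median of 2399, and 11 of the 16 (68.8%) reached 1000. For the other 35 the median was 399 bases and 11 (31.4%) reached 1000. Over all genes the medians were 1818 bases for those with enough counts and 634.5 for the rest, and 66.1% and 40.2% reached 1000. BIRC6 went the other way, with the highest counts of the group and at most 139 private bases in this annotation, while FAS had 12897 and almost no counts. The methods name StringTie for gene quantification, and the sources used here do not give the rule by which reads shared between transcripts were counted. A low count of a member therefore cannot be told apart from reads that were not counted, and its enrichment covers only the counted sequence.

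**Figure D1:**
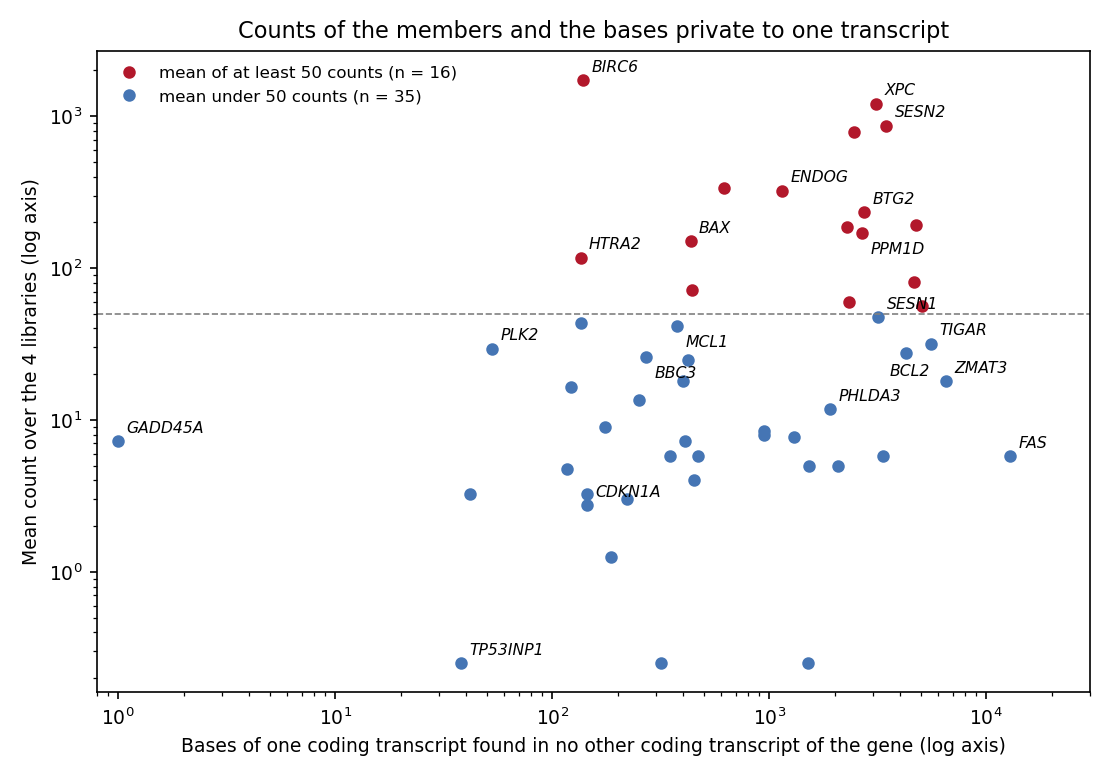
Mean count over the 4 libraries (log axis) against the largest number of bases private to 1 coding transcript of the gene (log axis) for the 51 members, in red for the 16 that average 50 counts or more and in blue for the other 35. The dashed line is the mean of 50 counts. Of the 16 red points 11 lie at 1000 bases or more, and BCL2L2, DDB2, BAX, BIRC6 and HTRA2 lie below at 616, 439, 434, 139 and 135 bases, while CDKN1A and GADD45A lie low at 145 bases and 1 base.

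Most of the 16 members differed by less than 1.5-fold between shA5 and shCTL, in RNA level and in m6A enrichment. In input RNA, 2 members were called lower in shA5 (BTG2 and ENDOG) and 0 higher, where 6.43% of all 5320 genes were called lower and 3.44% higher. In m6A enrichment, 1 member was called higher (ENDOG, at the threshold) and 0 lower, against backgrounds of 5.38% and 5.09%. The median input change of the members was 0.12, with 10 above 0 and 6 below, beside a median of -0.02 over all genes. The median change in enrichment was 0.01, beside 0.00 over all genes (0.0036 unrounded), and the members ran from -0.43 for PPM1D to 0.585 for ENDOG, with 9 above 0 and 7 below. As each library was scaled to its own total, a median near 0 does not say whether m6A as a whole changed.

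The counting interval of the input change left out 0 for 4 of the 16 members (BTG2, ENDOG, SESN2 and BIRC6), where 28.5% of all genes with these counts did so. For the change in enrichment it left out 0 for 1 member, ENDOG, where 16.2% of all genes did. Of the 35 members below the filter, 13 had a mean of 10 to 50 counts. Their input interval left out 0 for 1 (PHLDA3), against 11.3% of the 3949 genes in that range, and their enrichment interval for 1 (BBC3), against 8.23%. With so few members the difference between their shares and the background was not tested.

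**Figure D2:**
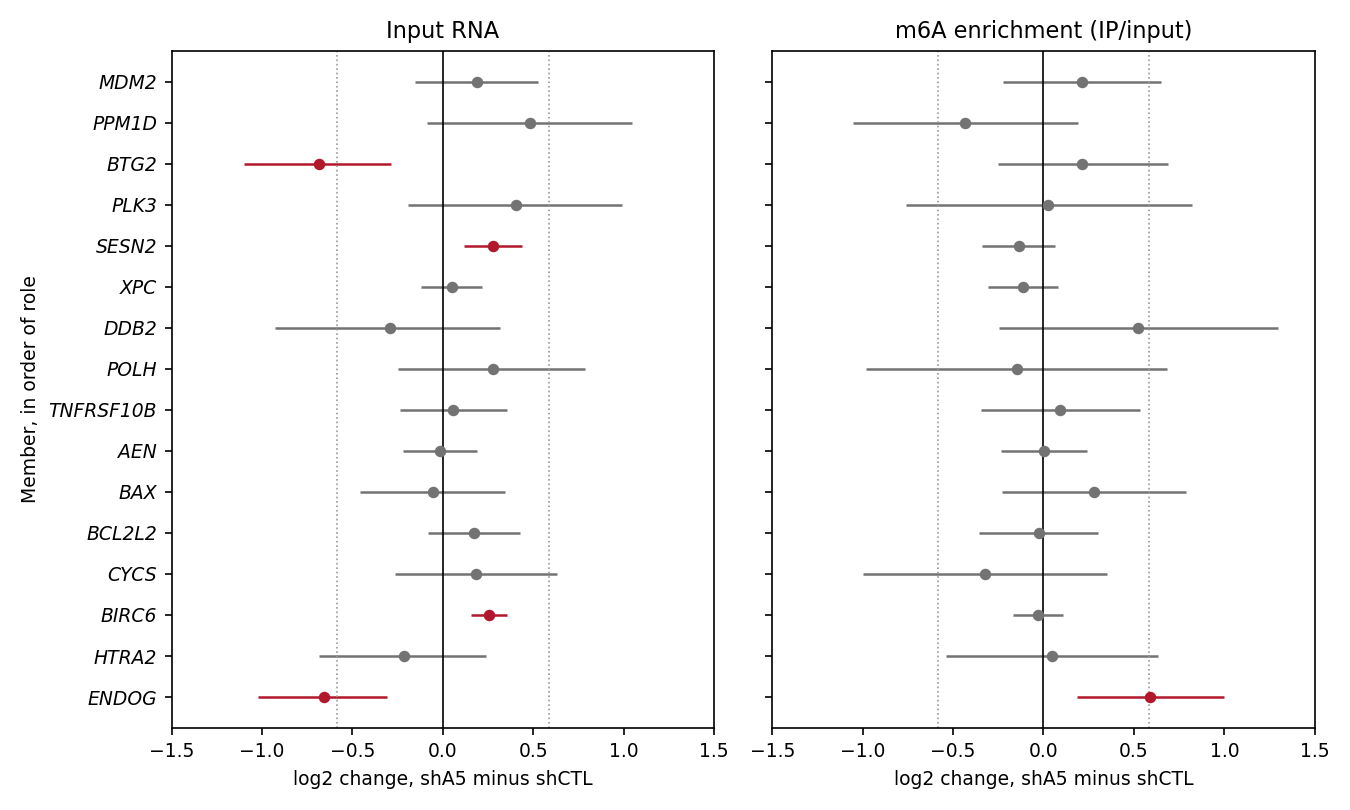
Change in input RNA (left) and in m6A enrichment (right) of the 16 members, as log2 of shA5 over shCTL without an added value, with exact 95% counting intervals and 1 library per group. Dotted lines mark 1.5-fold, and red marks intervals that leave out 0, which are BTG2, SESN2, BIRC6 and ENDOG on the left and ENDOG alone on the right.

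Among the feedback regulators, PPM1D carried the strongest m6A enrichment of the 16 members. PPM1D encodes the phosphatase WIP1, which removes activating phosphates from p53 and its kinases, and spans positions 60600193 to 60666280 of chromosome 17 (hg38, plus strand). In the inputs of shCTL and shA5 it had 61 counts (27.3 CPM) and 50 counts (38.1 CPM), and in the IPs 310 (78.6 CPM) and 256 (81.3 CPM). Both IP libraries lay above both inputs. Enrichment was 1.51 in shCTL (1.13 to 1.95) and 1.08 in shA5 (0.65 to 1.56). The IP level differed by 0.05 between populations and the input by 0.48 (-0.09 to 1.05), with a change in enrichment of -0.43 (-1.05 to 0.19). In libraries thinned to the smallest total the change in enrichment was -0.18 and the input change 0.39.

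MDM2, the ubiquitin ligase that sends p53 to degradation, lies on chromosome 12 from 68808177 to 68845544 on the plus strand. It had 184 counts (82.2 CPM) and 123 counts (93.8 CPM) in the shCTL and shA5 inputs, and 224 (56.8 CPM) and 236 (75.0 CPM) in the IPs. Both IP levels lay below both input levels, with enrichment of -0.53 in shCTL (-0.82 to -0.24) and -0.32 in shA5 (-0.64 to 0.00). Its input change of 0.19 (-0.15 to 0.53) and its enrichment change of 0.21 (-0.23 to 0.65) both had intervals that hold 0, while the IP level was 0.40 higher in shA5 (0.13 to 0.67). MDM4, the partner of MDM2 that masks the activation domain of p53, had 4 and 4 counts in the inputs and 18 and 10 in the IPs.

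BTG2 was the cell cycle gene with the clearest difference. It encodes an antiproliferative protein that promotes mRNA deadenylation, from a gene with 1 coding transcript on chromosome 1 from 203305491 to 203309602 on the plus strand. Its input counts were 195 (87.1 CPM) for shCTL and 71 (54.1 CPM) for shA5, with 424 (107 CPM) and 244 (77.5 CPM) in the IPs. Its level was lower in shA5 in both kinds of library. The input change was -0.68 (-1.10 to -0.29) and the IP change -0.47 (-0.71 to -0.24). The 1 fibroblast marker with enough counts had an input change of -0.65, of the same size. Of the 3 HEK293T markers with enough counts, LIN28B was at -0.62 (-1.31 to 0.01) and NEFL at -0.34 (-0.73 to 0.05). IGF2BP1 went the other way, at 0.15 (0.06 to 0.25). The part of these markers in the BTG2 result was not tested. Less RNA per cell and a smaller share of cells that express a gene cannot be told apart in such bulk libraries. Enrichment was 0.30 in shCTL (0.05 to 0.56) and 0.51 in shA5 (0.13 to 0.92), a change of 0.21 with an interval of -0.25 to 0.69.

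SESN2 moved the other way by a smaller amount. Sestrin 2 is a stress protein that restrains mTORC1, the growth kinase. SESN2 had 767 counts (343 CPM) and 544 counts (415 CPM) in the inputs, and 1147 (291 CPM) and 1007 (320 CPM) in the IPs. Its input was 0.28 higher in shA5 (0.11 to 0.44), which stayed below 1.5-fold, and its enrichment was -0.24 in shCTL (-0.37 to -0.10) and -0.37 in shA5 (-0.53 to -0.22). PLK3, a polo-like kinase of the stress response, had 58 counts (25.9 CPM) and 45 counts (34.3 CPM) in the inputs and 65 (16.5 CPM) and 70 (22.2 CPM) in the IPs. It was depleted in the IP of both populations, at -0.64 (-1.19 to -0.12) and -0.61 (-1.19 to -0.05). Its enrichment change of 0.02 turned to -0.44 in libraries thinned to the smallest total.

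The other 6 genes of this group were below the filter. CDKN1A encodes p21, the cyclin-dependent kinase inhibitor through which p53 arrests the cell cycle, and had 3 and 4 counts in the shCTL and shA5 inputs and 3 and 1 in the IPs. A change of its RNA or of its m6A was not detectable from so few counts. GADD45A, a stress sensor that slows G2/M, had 15 and 6 counts in the inputs and 4 and 4 in the IPs, and CCNG1, which encodes cyclin G1, had 10 and 7 in the inputs and 13 and 4 in the IPs. PLK2, another polo-like kinase, had 20 and 7 counts in the inputs and 42 and 49 in the IPs, and ZMAT3, an RNA-binding p53 target, had 20 and 20 in the inputs and 21 and 11 in the IPs.

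SESN1, the sestrin first found as a p53 target, fell just under the filter with 37 and 15 counts in the inputs and 71 and 67 in the IPs. These counts mixed 2 transcripts with opposite behaviour in shCTL. ENST00000436639 (3509 nt) had 18 and 14 counts in the inputs and 68 and 65 in the IPs, with enrichment of 1.10 (0.33 to 1.94) in shCTL and 0.95 in shA5, where the interval also lay above 0. ENST00000356644 (2676 nt) had 19 input counts and 1 IP count in shCTL, a ratio of -5.07 (-10.44 to -2.41), and 1 and 2 counts in shA5. Over the whole gene the enrichment in shCTL, with 0.5 CPM added, came out at 0.12.

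XPC stood out among the DNA repair genes by its depth and a modest enrichment. Its product recognises bulky lesions for nucleotide excision repair, and the gene spans positions 14145147 to 14178621 of chromosome 3 (minus strand). It had 770 counts (344 CPM) and 467 counts (356 CPM) in the inputs, and 2038 (517 CPM) and 1554 (494 CPM) in the IPs. Both IP levels were above both inputs, with enrichment of 0.59 in shCTL (0.47 to 0.71) and 0.47 in shA5 (0.32 to 0.62). The input change of 0.05 had an interval of -0.12 to 0.22, and the enrichment change of -0.12 one of -0.31 to 0.08, so differences of 1.5-fold lay outside both.

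POLH, the polymerase eta that copies past ultraviolet damage, had the lowest enrichment in shCTL of the 16. It had 79 counts (35.3 CPM) and 56 counts (42.7 CPM) in the inputs, and 47 (11.9 CPM) and 41 (13.0 CPM) in the IPs. Its enrichment was -1.53 (-2.12 to -1.03) in shCTL and -1.68 (-2.33 to -1.11) in shA5, with both IPs well below both inputs. DDB2, the damage sensor that works with XPC, had 71 and 34 counts in the inputs and 93 and 87 in the IPs, and its enrichment of -0.42 in shCTL and 0.09 in shA5 gave a change of 0.51 (-0.24 to 1.30), which turned to -0.10 in thinned libraries. RRM2B, the p53-inducible ribonucleotide reductase subunit that supplies nucleotides, had 11 and 1 counts in the inputs and 7 and 4 in the IPs.

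The 3 metabolic targets were all below the filter. TIGAR, a fructose bisphosphatase that lowers glycolytic flux, had 33 and 25 counts in the inputs and 30 and 39 in the IPs. FDXR, the ferredoxin reductase of mitochondria, had 16 and 16 in the inputs and 15 and 19 in the IPs, and TP53I3, a quinone oxidoreductase, had 10 and 6 in the inputs and 36 and 20 in the IPs. Their 12 values lay between 6 and 39 counts.

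Of the death receptors only TNFRSF10B had enough counts. It encodes the TRAIL receptor DR5 and had 254 counts (114 CPM) and 155 counts (118 CPM) in the inputs, and 177 (44.9 CPM) and 157 (49.9 CPM) in the IPs. Inputs matched within counting error, with a change of 0.06 (-0.24 to 0.35), and both IPs lay far below them. Enrichment was -1.33 (-1.62 to -1.06) in shCTL and -1.24 (-1.57 to -0.92) in shA5. FAS, the receptor of FAS ligand, had 11 and 1 counts in the inputs and 5 and 6 in the IPs, and TNFRSF10A, the other TRAIL receptor, had 1 count in the shCTL input and 0 in the other libraries.

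AEN, an apoptosis-enhancing nuclease, was the most even of the pro-apoptotic targets. It had 543 counts (243 CPM) and 315 counts (240 CPM) in the inputs, and 1264 (320 CPM) and 1000 (318 CPM) in the IPs. Enrichment was 0.40 in both populations (0.26 to 0.55 in shCTL and 0.22 to 0.59 in shA5), with a change of 0.00 (-0.24 to 0.24). PHLDA3, which blocks AKT at the membrane, had 16 and 2 counts in the inputs of shCTL and shA5 and 15 and 14 in the IPs. Its input ratio without an added value was -2.23 (-5.39 to -0.14) on the log2 scale, an interval that a few counts would move. TP53INP1, a cofactor of p53 in cell death, had 1 count in the shCTL m6A-IP and 0 in the other libraries.

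**Figure D3:**
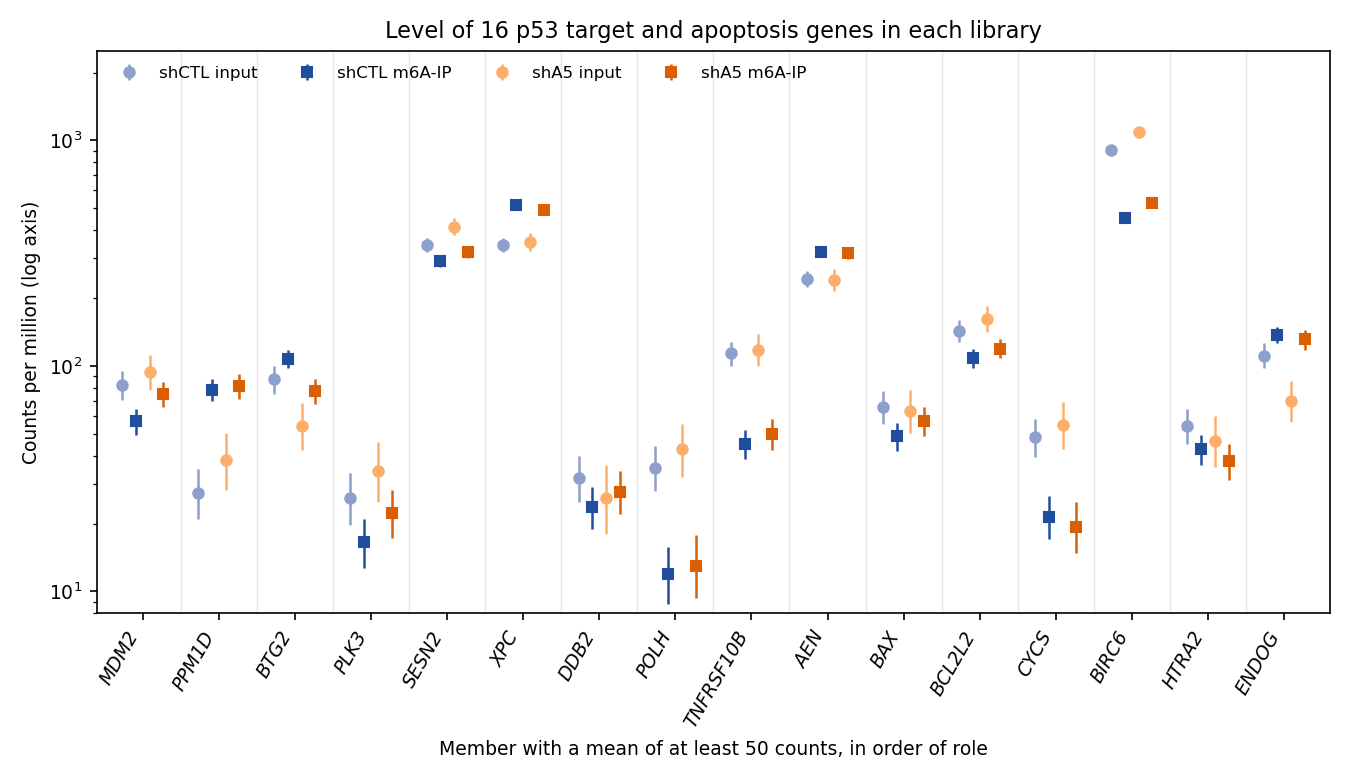
CPM (log axis) of the 16 members in each library, with exact 95% Poisson intervals from the counts of 1 library per group (circles, input; squares, m6A-IP; blue, shCTL; orange, shA5). BTG2 and ENDOG have shA5 inputs of 54.1 and 70.2 CPM below shCTL inputs of 87.1 and 111 CPM, and PPM1D has both m6A-IPs above both inputs.

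Across the BCL2 family, 2 of 13 members could be measured, BAX and BCL2L2. BAX, the p53-induced protein that forms pores in the mitochondrial membrane, had 147 counts (65.7 CPM) and 83 counts (63.3 CPM) in the inputs, and 192 (48.7 CPM) and 179 (56.9 CPM) in the IPs. Inputs overlapped, with a change of -0.05 (-0.46 to 0.34). Enrichment was -0.43 (-0.75 to -0.11) in shCTL and -0.15 (-0.54 to 0.24) in shA5, and the change of 0.28 had an interval of -0.23 to 0.79. BCL2L2, the anti-apoptotic BCL-W, had 321 counts (143 CPM) and 212 (162 CPM) in the inputs and 426 (108 CPM) and 376 (119 CPM) in the IPs, with enrichment of -0.41 and -0.44. BCL2L2 shares exons on its own strand with the readthrough gene BCL2L2-PABPN1, so its counts may not all be its own.

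The mRNAs of the main survival proteins were below the filter. BCL2, which keeps BAX from opening the mitochondrial membrane, had 22 and 11 counts in the shCTL and shA5 inputs and 41 and 36 in the IPs, spread over 2 transcripts. MCL1, a short-lived guard against BAK1, had 10 counts (4.47 CPM) and 11 counts (8.39 CPM) in the inputs but 78 (19.8 CPM) and 67 (21.3 CPM) in the IPs. Both IPs were above both inputs, with enrichment of 2.03 (1.19 to 3.26) in shCTL and 1.29 (0.41 to 2.41) in shA5, and the change of -0.74 had an interval of -2.29 to 0.67. BCL2L1, which encodes BCL-XL, had 1 to 6 counts in a library.

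BBC3 encodes PUMA, the BH3-only protein that p53 induces. Its input counts were 31 (13.9 CPM) for shCTL and 9 (6.86 CPM) for shA5, with 27 (6.85 CPM) and 37 (11.8 CPM) in the IPs. Its IP lay below the input in shCTL and above it in shA5. The change in enrichment of 1.70 had an interval of 0.40 to 3.26, with an input change of -0.96 (-2.27 to 0.09) and an IP change of 0.74 (0.03 to 1.55). It was named after its values were seen, as the only member of 10 to 50 counts whose enrichment interval left out 0. Of the other BH3-only genes, BID, BIK, BMF and BCL2L11 had 0 to 17 counts in a library. BAK1 had 0 to 5, and the atypical BCL2L12 and BCL2L13 had 3 to 37.

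CYCS was the apoptosome gene with enough counts, and its 2 main transcripts differed. CYCS encodes cytochrome c and had 108 counts (48.3 CPM) and 72 counts (54.9 CPM) in the inputs, and 84 (21.3 CPM) and 61 (19.4 CPM) in the IPs, so that both IPs were below both inputs. Enrichment of the gene was -1.16 (-1.61 to -0.76) in shCTL and -1.48 (-2.02 to -0.99) in shA5. The long transcript ENST00000305786 (5432 nt) had 99 and 67 counts in the inputs and 47 and 42 in the IPs, with enrichment of -1.89 (-2.43 to -1.38) and -1.94 (-2.53 to -1.36). The short ENST00000409409 (974 nt) had 8 and 5 counts in the inputs and 32 and 19 in the IPs, with enrichment of 1.18 (0.03 to 2.51) and 0.66 (-0.81 to 2.44). In shCTL the intervals of the 2 transcripts did not meet, and in shA5 they did not meet either.

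**Figure D4:**
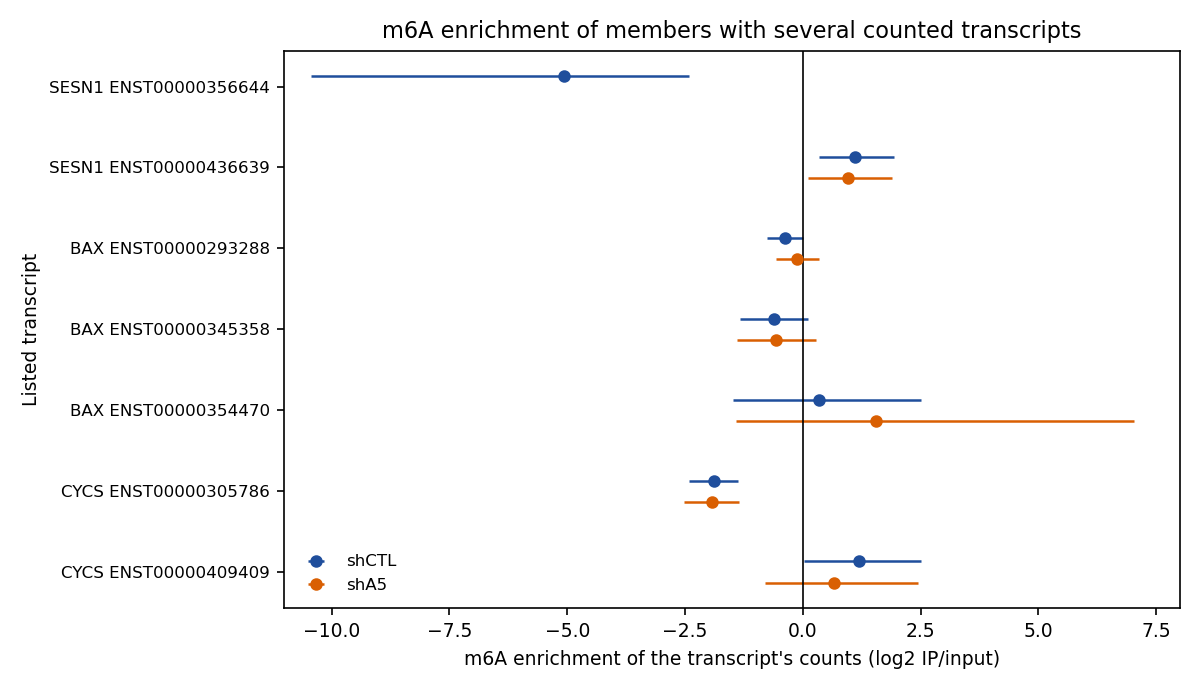
m6A enrichment (log2 IP/input without an added value) of single transcripts of SESN1, BAX and CYCS that average 5 counts or more, with exact 95% counting intervals, in blue for shCTL and orange for shA5. The 2 CYCS transcripts lie on opposite sides of 0, at -1.89 and 1.18 in shCTL, and the shA5 value of ENST00000356644 is left out because its counts were at most 3.

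The caspases and their activator gave few counts. CASP2, the initiator caspase linked to DNA damage, had 38 and 32 counts in the inputs and 44 and 60 in the IPs. APAF1, the scaffold of the apoptosome, had 3 to 8 counts in a library, and CASP6, CASP8 and CASP9 had 2 to 10. No change in these 4 genes could be seen from so few counts.

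BIRC6 had the most counts of any member. It encodes BRUCE, a very large inhibitor of apoptosis protein with ubiquitin-conjugating activity, and lies on chromosome 2 from 32357023 to 32619571 on the plus strand. It had 2039 counts (911 CPM) and 1426 counts (1090 CPM) in the inputs, and 1785 (453 CPM) and 1663 (528 CPM) in the IPs. Enrichment was -1.01 (-1.10 to -0.92) in shCTL and -1.04 (-1.14 to -0.94) in shA5, and their difference of -0.03 was bounded to -0.17 to 0.11. The input was 0.26 higher in shA5 (0.16 to 0.35) and the IP 0.22 higher (0.13 to 0.32), both below 1.5-fold. XIAP, which inhibits caspases directly, had 13 and 16 counts in the inputs and 16 and 9 in the IPs, and BIRC2, which encodes cIAP1, had 11 and 1 in the inputs and 6 and 5 in the IPs.

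ENDOG was the member that was called in both measures, which are not separate, as both use the shA5 input. It encodes endonuclease G, a mitochondrial nuclease that can cleave chromatin in dying cells, from a gene with 1 coding transcript on chromosome 9 from 128818500 to 128822676 on the plus strand, where exons of SPOUT1 overlap it on the other strand. For shCTL it had 248 counts (111 CPM) in the input and 541 (137 CPM) in the IP, and for shA5 92 (70.2 CPM) and 411 (131 CPM). The shA5 input was the lowest, and the shCTL input lay below both IPs. The input change was -0.66 (-1.02 to -0.31) and the IP change -0.07 (-0.26 to 0.12). Enrichment was 0.31 (0.09 to 0.53) in shCTL and 0.89 (0.57 to 1.24) in shA5, and the change of 0.585 (0.19 to 0.997) just reached the threshold, a call that ended in thinned libraries and with a pseudocount of 2 CPM.

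ENDOG also had the highest GC content of the 16 transcripts, at 67.9%. Over 5279 genes the rank correlation of GC content with the input change was -0.10, as a description. With a trend on GC removed, the input change of ENDOG was -0.43 and its enrichment change 0.45, so both calls ended, while the input change of BTG2 was -0.73. Whether the counting of antisense reads bears on ENDOG was not tested, nor was the part of the fibroblast markers, which were lower in shA5. The part of the HEK293T markers, summed to 1150 and 1240 CPM in the shCTL and shA5 inputs, was not tested either. HTRA2, a mitochondrial protease that frees caspases from their inhibitors, had 121 and 61 counts in the inputs and 168 and 119 in the IPs, with enrichment of -0.34 and -0.30. DIABLO, the antagonist of the inhibitor proteins, had 5 counts in the shA5 input and 0 in the other libraries, and AIFM1, the apoptosis-inducing factor, had 1 to 10 counts in a library.

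Side by side, the 16 members spanned m6A enrichment from -1.53 to 1.51 in shCTL. In shCTL, 2 of 16 were enriched (PPM1D and XPC, the latter at 0.5858, a call that TMM or DESeq2 factors ended) and 5 were depleted (POLH, TNFRSF10B, CYCS, BIRC6 and PLK3), where 22.5% and 30.3% of all genes were. In shA5, 2 were enriched (PPM1D and ENDOG) and the same 5 were depleted, against 24.3% and 31.7%. The median enrichment was -0.41 in shCTL and -0.31 in shA5, beside -0.11 and -0.10 over all genes. That order turned with depth. Among the 7 members that average 200 counts or more the medians were 0.30 and 0.40, beside 0.12 and 0.16 over all genes of that depth. The 5 most enriched in shCTL were PPM1D, XPC, AEN, ENDOG and BTG2, and the intervals of XPC, AEN, ENDOG and BTG2 overlap while that of PPM1D lies above them.

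**Figure D5:**
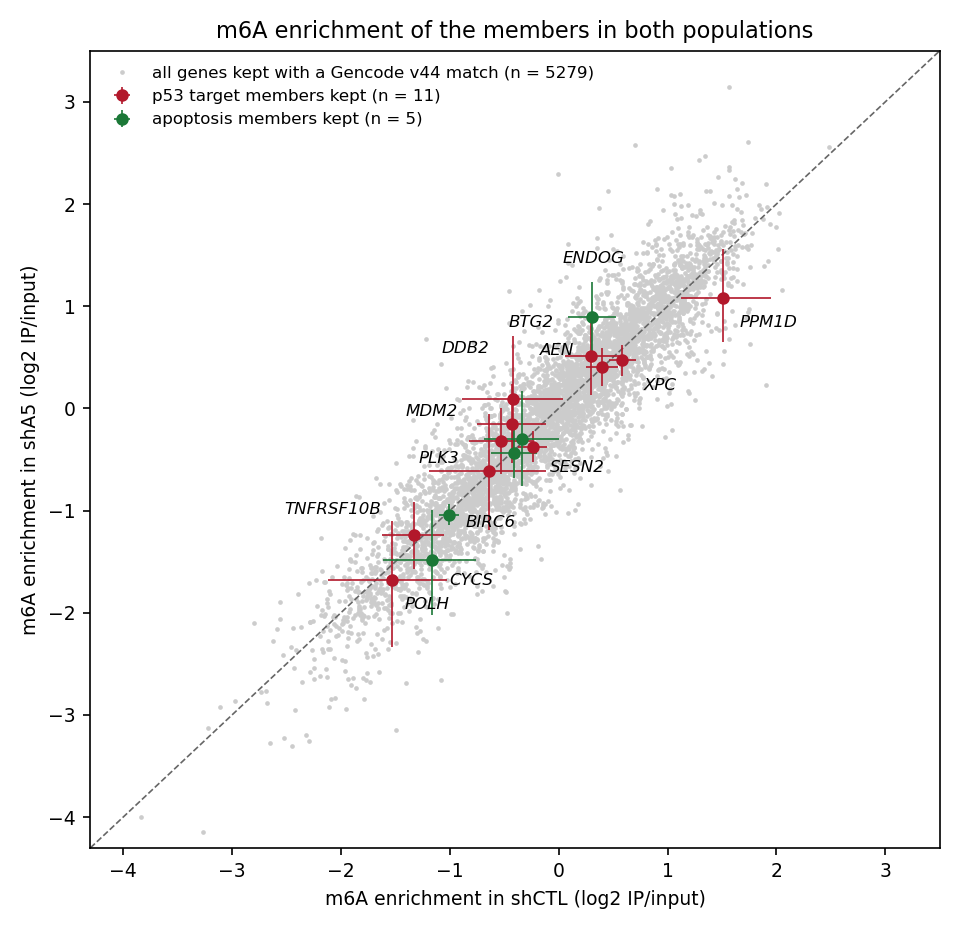
m6A enrichment (log2 IP/input) in shCTL and shA5 of the 16 members (red, p53 targets; green, other apoptosis genes) with exact 95% counting intervals, over all genes kept that match Gencode v44 (grey, n = 5279). Members lie along the dashed line of equal values from POLH at -1.53 and -1.68 to PPM1D at 1.51 and 1.08, with ENDOG above the line at 0.31 and 0.89.

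m6A is placed mainly in the sequence context DRACH, of which GGACT in the DNA alphabet is a common form. The GGACT nearest to the last coding base is shown for the 5 most enriched members and for 3 of the depleted ones, so that their sequence can be read beside the values above. Sites whose 21 bases cross an exon junction were passed over. Each line gives 21 bases of the transcript strand from hg38 with the motif in capitals.

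PPM1D: ggagtgatGGACTttggaata
XPC: caggaggtGGACTctcttctg
AEN: caagcgagGGACTtcactctt
ENDOG: cggcgccgGGACTgctgggcc
BTG2: gccagatcGGACTcagccagc
BIRC6: attgatgtGGACTtcatagac
CYCS: gttttctaGGACTgcctcaac
POLH: gaacacatGGACTatcatttt

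They lie in the coding sequence of PPM1D (chr17:60648000-60648020, plus strand), XPC (chr3:14146111-14146131, minus strand), ENDOG (chr9:128818779-128818799, plus strand), BTG2 (chr1:203307209-203307229, plus strand) and POLH (chr6:43614360-43614380, plus strand). In AEN (chr15:88631493-88631513, plus strand), BIRC6 (chr2:32617910-32617930, plus strand) and CYCS (chr7:25122666-25122686, minus strand) they lie in the 3′ untranslated region. The counts do not say which of these bases, if any, is methylated.

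The number of GGACT sites did not order the members by enrichment. On the transcript strand, GGACT was found in 15 of the 16 transcripts, with PLK3 as the exception, and in 93.3% of 5279 transcripts of all genes. PPM1D had 2 sites in 4768 nt (0.419 per kb) and the highest enrichment, AEN had 1 site (0.326 per kb), and SESN2 had 7 (2.02 per kb) with enrichment below 0. CYCS and POLH had 7 sites each, and BIRC6 had 20 in 15687 nt. The rank correlation of site density with enrichment in shCTL was -0.35 over the 16 members and 0.17 over all genes, given as descriptions of transcripts that share libraries. Over all genes the median enrichment was -0.33 for the 1760 genes with the fewest sites per kb, -0.11 for the 1759 in the middle and 0.09 for the 1760 with the most. GC content had a rank correlation with enrichment in shCTL of 0.358 over all genes and 0.359 over the 16 members. Its part in these medians was not tested.

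Levels per transcript length in the shCTL input ran from 4.22 CPM per kb (POLH) to 99.0 (SESN2) over the 16 members, taking the transcript with the most counts and the length given in the tables. ENDOG had 96.8, XPC 89.8, AEN 79.0, BIRC6 58.0 and BTG2 31.9 CPM per kb, whereas MDM2 had 6.4 and PPM1D 5.72. The lengths of MDM2, XPC, DDB2, BCL2L2, BIRC6 and HTRA2 in the tables differ from Gencode v44, most of all for MDM2 with 12632 nt against 7490 nt. By exon overlap in that annotation, 8 of the 16 members meet another gene on the opposite strand, and the sources used here do not say whether counting used strand.

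Other genes of the p53 pathway were taken from 3 lists of genes that are no members. Of 25 genes listed for the upstream part of the pathway, 11 had enough counts, with 0 called in input RNA and 0 in m6A enrichment in either direction. Over all genes 3.44% were called higher and 6.43% lower in input RNA, and 5.38% higher and 5.09% lower in enrichment. The median enrichment of the 11 was -0.44 in shCTL and -0.38 in shA5, beside -0.11 and -0.10 over all genes. ATM, the kinase that signals DNA breaks to p53, had 126 counts in the shCTL input and an enrichment change of -0.41 (-0.99 to 0.16), with an interval that holds 0. HIPK2, a p53 kinase, was lower in shA5 before and after the pull-down, by -0.50 in the input (-0.70 to -0.30) and -0.60 in the IP (-0.78 to -0.42), with an enrichment change of -0.10 (-0.37 to 0.17). The input interval left out 0 for 4 of the 11, against 28.5% of all genes. The interval of the enrichment change left out 0 for 1 of the 11, against 16.2% of all genes. That gene was RPL5, a ribosomal protein that binds MDM2, with a change of -0.30 (-0.44 to -0.17).

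Of 33 further p53 targets, 10 had enough counts, with 1 called higher and 2 lower in input RNA, and 2 higher and 0 lower in enrichment, and the backgrounds are those just given. The gene with the higher input was SFN, which encodes the cell cycle inhibitor 14-3-3 sigma, with a change of 0.94 (0.19 to 1.75). PMAIP1 encodes NOXA, a BH3-only protein, and SERTAD1 a cell cycle regulator. PMAIP1 was 1 of the 2 lower in the shA5 input (-0.76) and its change in enrichment was 0.75 (0.04 to 1.53). SERTAD1 had an enrichment change of 0.77 (0.11 to 1.47). The median enrichment of the 10 was 0.27 in shCTL and 0.20 in shA5, where all genes had -0.11 and -0.10.

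Of 43 further apoptosis genes, 15 had enough counts, with 2 called higher and 0 lower in input RNA, and 1 higher and 1 lower in enrichment. These few calls stand beside backgrounds of 3.44% and 6.43% for input RNA and 5.38% and 5.09% for enrichment, and nothing about the list is read from them. AVEN, an inhibitor of APAF1, was the 1 with higher enrichment, with a change of 0.85 (0.16 to 1.58). HRK, a BH3-only gene, was the 1 with lower enrichment, with a change of -0.68 and an interval of -1.40 to 0.03. It was also 1 of the 2 called higher in input RNA, by 0.63 (0.07 to 1.21), while its IP level differed by -0.05. The medians of the 15 were -0.11 in shCTL and -0.17 in shA5, beside -0.11 and -0.10 over all genes.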

How the data were processed

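m6A-seq of irradiated HEK293T cells was analysed as 4 libraries with 1 per group. For each Ensembl transcript with a read, the authors deposited a raw count. Per the labels and methods they used bcl2fastq, fastp (0.23.2), HISAT2 on hg38, SAMtools (1.9) and MACS2, and they name StringTie for quantification. The annotation release and the rule for shared reads are not given in the sources used here. Gencode v44 holds 98.1% of these transcripts, 89.3% of them with the same length.

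Counts were summed per gene symbol and divided by the library total (CPM). Folds used a pseudocount of 0.5 CPM, a mean of at least 50 counts and a 1.5-fold call. Exact 95% intervals were Clopper-Pearson (fold between libraries), Poisson (CPM) and those of the conditional odds ratio (change in enrichment). The members, gene lists and named genes were chosen with earlier results of these data known. Values in every library are given for CDKN1A, MDM2, BAX, BCL2, MCL1, BIRC6 and XIAP, for members called or whose interval leaves out 0, for the 5 highest and 5 lowest in shCTL enrichment, and for p53 targets below the filter. The steps were tested on simulated data.

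Alternatives were edgeR (4.0.16) TMM factors, DESeq2 (1.42.0) size factors, other pseudocounts, filters and folds, thinned libraries, the most counted transcript alone and, added after seeing the data, a GC trend removed. Python 3.11.15 with scipy 1.17.1, pandas 2.3.3 and R 4.3.3 were used. Peaks were not analysed here, and 1 gene of the lists is not reported here.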

Additional observations from a re-analysis of the deposited data

How the results depend on the processing

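No paired analysis was possible because there was 1 library per group, and no replicate could be left out. Of 122 recomputed counts and medians, 90 kept within 1.5 times the count or within the interval of the median, and all 272 recomputed values of 20 single genes stayed within their counting intervals. Of these gene values 10 changed sign in thinned libraries and 3 with the GC trend removed, none of them past 1.5-fold, among them the enrichment changes of DDB2 (0.51, thinned -0.10) and PLK3 (0.02, thinned -0.44). The 32 counts and medians outside these limits were all counts of members. From a mean of 10 counts up 29 members were kept, with no filter 51 and from a mean of 200 counts up 7, and the share of all genes kept that was called follows each count. Depleted in shCTL were 10 (35.8%), 20 (36.7%) and 1 (21.7%) under these filters, and in shA5 9 (37.8%), 18 (37.5%) and 1 (23.7%). Enriched in shCTL were 4 (18.9%), 7 (21.6%) and 1 (29.1%), and in shA5 7 (21.3%), 12 (24.5%) and 1 (31.0%). At 2-fold, 1 was enriched in shCTL (10.1%) and 1 in shA5 (12%). Enriched in shCTL was 1 with TMM factors (22.2%), with DESeq2 size factors (22.3%), with a pseudocount of 2 CPM (22.1%) and in thinned libraries (22.9%). For input RNA, the filters of 10 counts and none gave 5 (12.5%) and 12 (19.9%) lower and 5 (9.32%) and 10 (15.3%) higher, and 0 were lower at 2-fold (1.15%) and 1 with the GC trend removed (5.82%). For enrichment, the same filters gave 4 (13.0%) and 12 (21.4%) lower and 5 (12.6%) and 15 (22.7%) higher. Higher in enrichment were 0 with a pseudocount of 2 CPM (4.81%), in thinned libraries (7.67%), at 2-fold (0.846%) and with the GC trend removed (5.25%). The looser filters add genes with few counts by construction, and the other causes were not tested. The median enrichment turned from -0.41 to 0.30 in shCTL and from -0.31 to 0.40 in shA5 from a mean of 200 counts up, where 7 members were left. The median change in enrichment, 0.01, took either sign within -0.03 to 0.04. The shA5 input, with 1311390 counts, limits the precision, and 35 of the 51 members average under 50 counts, where intervals are wide.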
